A study of Mus musculus with 4 samples.

Results

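The IL-17 program genes are 8 of the 31053 genes counted in the series, taken from a list by name: the cytokines Il17a and Il17f, the cytokine receptors Il23r and Il7r, the nuclear receptor Rora, the chemokine receptor Ccr6, the scavenger receptor gene Cd163l1 and the tyrosine kinase Blk. They were measured in CD45+ DAPI- immune cells sorted from 2 control skins of C57 mice and from 2 skin tumors of C57BL/6 mice, with 1 droplet library of 3' RNA per sample. The tumors grew in the flank from subcutaneously injected 2323 cells, a line made from a skin tumor of a transgenic mouse model in which keratin 14 drives the transgene, so both tumors come from 1 cell line. Control skin came from uninoculated animals, so tumor growth and the tissue sampled cannot be told apart. The injected mice were females and males of 8 to 10 weeks of age and the tumors were taken at 100 to 200 mm3. Over sorted cells, Y chromosome genes stood at 9.28 and 7.90 per 10000 counts in control skin and 3.18 and 4.02 in the tumors. Xist, a transcript of female cells, stood at 0.000524 and 0.000242 against 0.00491 and 0.00616. By these transcripts the cells of each library were mainly male. The labels do not say from which animals each library came, so that p-values measure only the spread between these samples, which may be technical.

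IL-17A and IL-17F are secreted proteins that act on epithelial cells and fibroblasts and call in neutrophils. In mouse skin their main source is a class of dermal γδ T cells that is programmed in the thymus, with lesser shares from Th17 cells, IL-17-producing CD8 T cells and innate lymphoid cells. These cells use RORα (Rora), which binds DNA at a short hexamer, and respond to IL-23 through Il23r, to IL-1 through Il1r1 and to IL-7 through Il7r. Blk, a Src family kinase, and Cd163l1, also named Scart1, mark γδ T cells of this class, and CCR6 guides cells to its ligand CCL20. Dendritic epidermal T cells (DETC) are the other large γδ population of mouse skin, sit in the epidermis and do not belong to this class. Rora and Il7r are not particular to it, since group 2 innate lymphoid cells (ILC2), regulatory T cells (Treg) and memory T cells use both.

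The genes lie on 7 chromosomes of GRCm38. Il17a (ENSMUSG00000025929, chr1:20730905-20734496, plus strand) and Il17f (ENSMUSG00000041872, chr1:20777146-20790617, minus strand) are neighbours with 42649 bases between them. Il23r (ENSMUSG00000049093) is at chr6:67422932-67491855 on the minus strand and Rora (ENSMUSG00000032238) at chr9:68653786-69388246 on the plus strand. Ccr6 (ENSMUSG00000040899) is at chr17:8236043-8257141 on the plus strand and Cd163l1 (ENSMUSG00000025461) at chr7:140218267-140231145 on the plus strand. Blk (ENSMUSG00000014453) is at chr14:63372836-63417037 and Il7r (ENSMUSG00000003882) at chr15:9505788-9530176, both on the minus strand. All are annotated as protein coding.

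The 200 bases before the RefSeq starts of Il17a, Il17f and Il23r are shown because these are the cytokines and the receptor the results turn on, and because Rora, whose protein binds the hexamer, is measured beside them. Capitals mark the hexamer AGGTCA, read on either strand (TGACCT on the other). The regions are chr1:20730705-20730904 (plus strand), chr1:20784271-20784470 (minus strand) and chr6:67491856-67492055 (minus strand) of GRCm38.p6.
Il17a: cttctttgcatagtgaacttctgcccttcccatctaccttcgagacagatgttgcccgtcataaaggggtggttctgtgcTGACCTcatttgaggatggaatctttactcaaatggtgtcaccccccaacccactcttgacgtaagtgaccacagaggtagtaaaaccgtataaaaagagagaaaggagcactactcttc
Il17f: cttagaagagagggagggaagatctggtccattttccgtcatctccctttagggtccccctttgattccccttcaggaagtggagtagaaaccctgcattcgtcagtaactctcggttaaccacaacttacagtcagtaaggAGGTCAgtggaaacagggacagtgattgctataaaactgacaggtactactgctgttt
Il23r: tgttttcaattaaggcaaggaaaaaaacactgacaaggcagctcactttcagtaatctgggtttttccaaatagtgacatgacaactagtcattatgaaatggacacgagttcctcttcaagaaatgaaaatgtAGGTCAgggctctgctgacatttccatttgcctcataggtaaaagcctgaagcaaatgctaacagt
The hexamer starts 120 bases before the start of Il17a, 58 before that of Il17f and 66 before that of Il23r. It was found in 4 of the 8 promoters of the 7 genes that matched the table, the fourth being that of the upstream start of Ccr6, and in 11.4% of all 32851 promoters of this length. The windows of Rora, Cd163l1, Il7r and the downstream start of Ccr6 do not hold these letters. A match is a description of the letters and not a binding site.

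Lymphocytes were sorted into types by marker genes that did not include any of the 8 genes. T cells needed a Cd3 transcript. A γδ T cell needed Trdc above Trac, and was called DETC when Fcer1g, Nkg7 and Il2rb together reached 12 unique molecular identifiers (UMIs) per 10000, and dermal γδ T otherwise. The αβ T cells were split into Treg (Foxp3), CD8, CD4 and double negative (DN, no UMI of Cd4 or Cd8) T cells, and cells without Cd3 into NK cells and ILC2. A cell can express a gene without a UMI of it, so the DN gate can hold CD4 or CD8 T cells. Levels are UMIs of a gene per 10000 UMIs, over the summed counts of a type in a library, so that a library is 1 value and cells are not replicates. After filtering, the libraries held 2892 and 2994 control cells and 4555 and 1954 tumor cells, with 1578, 1255, 959 and 372 lymphocytes among them. All cells kept had medians of 10283 to 13019.5 UMIs per library, and 1 to 5 barcodes were shared by any 2 libraries. The lymphocytes had medians of 9114 and 9803 UMIs in control skin and 7808 and 7690 in the tumors, and the part of this depth in full-depth shares was not tested.

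The types where IL-17 cells would be sought were scarce in the tumors. Dermal γδ T cells numbered 59 and 74 in control skin and 13 and 5 in the tumors, 4.82% ± 1.53 (SD, n = 2) of lymphocytes against 1.35% ± 0.00813. DETC numbered 635 and 675 against 13 and 23, and ILC2 133 and 114 against 7 and 9. The δ chain Trdv4, which DETC carry and other γδ T cells can share, was found among tumor DETC in 95.7% of the 23 cells of tumor 2 but in 15.4% of the 13 cells of tumor 1, so that most cells gated as DETC in tumor 1 lacked it. In the dermal γδ gate Trdv4 was found in 35 and 33 cells in control skin and in 1 and 0 in the tumors. There 5830411N06Rik (also named Scart2, another γδ scavenger receptor) stood at 3.27 and 4.55 against 3.28 and 4.68 per 10000. These levels came from 24 and 29 against 3 and 2 cells. Of the γ chain genes, Tcrg-C2 stood at 0.515 and 0.297 against 1.60 and 1.40 and Tcrg-C4 at 0.864 and 0.494 against 2.40 and 0.935. Tcrg-C1 overlapped, at 1.05 and 1.33 against 0.401 and 1.64. The part of these markers in the levels below was not tested.

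Among control lymphocytes, Il17a and Il17f were highest in dermal γδ T cells. Il17a reached 6.18 and 2.87 per 10000 and Il17f 7.31 and 4.96 there. In both tumors both cytokines had 0 UMIs in this gate. Control and tumor libraries did not overlap. Pooled over libraries, the control level was 25.2-fold a floor of 3 counts over both tumors for Il17a and 34.2-fold that floor for Il17f. Of 133 control dermal γδ T cells, 48 held either cytokine (36.1%, 95% Clopper-Pearson interval 27.9% to 44.9%), against 0 of 18 in the tumors, which allows a share of up to 16.7% by 3 counts over the 18 cells (Clopper-Pearson upper bound 18.5%). At 2000 UMIs per cell, Il17a was found in 22.4% and 12.5% of the control cells (28.8% and 29.7% at full depth). The intervals and floors cover counting error only. The folds take UMIs as independent, while single cells of this gate held up to 64 Il17a and 105 Il17f UMIs in control skin. They are therefore not lower bounds over cells. In macrophages, which do not make these cytokines in quantity, Il17a was found in 1.16% and 0.99% of the control cells, at median depths of 19044.5 and 15441.5 UMIs per cell against 9120 and 7521 in dermal γδ T cells, and those shares are read as background. With so few tumor γδ cells no test across libraries was made in this gate.

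The receptor and kinase genes had lower values in the tumor γδ cells. Il23r, the receptor chain for IL-23, stood at 5.72 and 7.94 in control and at 1.20 and 2.10 in tumor dermal γδ T cells. The pooled control level was 4.77-fold higher (95% exact counting interval 3.18 to 7.49). Blk stood at 5.82 and 8.34 against 1.36 and 1.17, 5.40-fold higher in control skin (3.54 to 8.66). Both genes were thus lower in each tumor than in each control skin in this gate, an order of 2 against 2 libraries that was not tested. Ccr6 was at 1.10 and 0.79 in control skin and had 0 UMIs in both tumors, with a pooled control level 5.27-fold the same floor.

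The remaining genes were found in the dermal γδ T cells of all 4 libraries. Rora stood at 29.95 and 25.96 per 10000 against 7.53 and 11.93, 3.23-fold higher in control skin (2.74 to 3.84). Il7r stood at 6.32 and 6.85 against 4.09 and 5.38, 1.49-fold higher (1.17 to 1.92). At full depth 83.3% of the 18 tumor cells held Il7r. In control skin 100% of the 48 cells with either cytokine and 44.7% of the other 85 did. Cd163l1 stood at 1.21 and 3.28 against 1.76 and 0.23, so its groups overlapped. These values depend on where DETC are set apart. With the threshold at 8 in place of 12, which left 35 and 43 control and 9 and 2 tumor cells, Il7r was higher in the tumors on average (7.78 and 6.94 against 7.72 and 12.3) and Il23r overlapped (7.01 and 7.31 against 2.57 and 7.03). The ratio of the means fell from 4.13 to 1.49 for Il23r, from 5.59 to 2.03 for Blk and from 2.25 to 1.47 for Cd163l1, while Rora (33.9 and 28.9 against 12.9 and 19.3) and Blk (7.46 and 7.37 against 2.92 and 4.39) still did not overlap, and Il17a, Il17f and Ccr6 had 0 UMIs in the tumors. All these intervals are over 2 pooled libraries and counts of reads from few cells, and say nothing of the spread between animals. They also take UMIs as independent although UMIs cluster in cells, so they are too narrow.

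**Figure D1:**
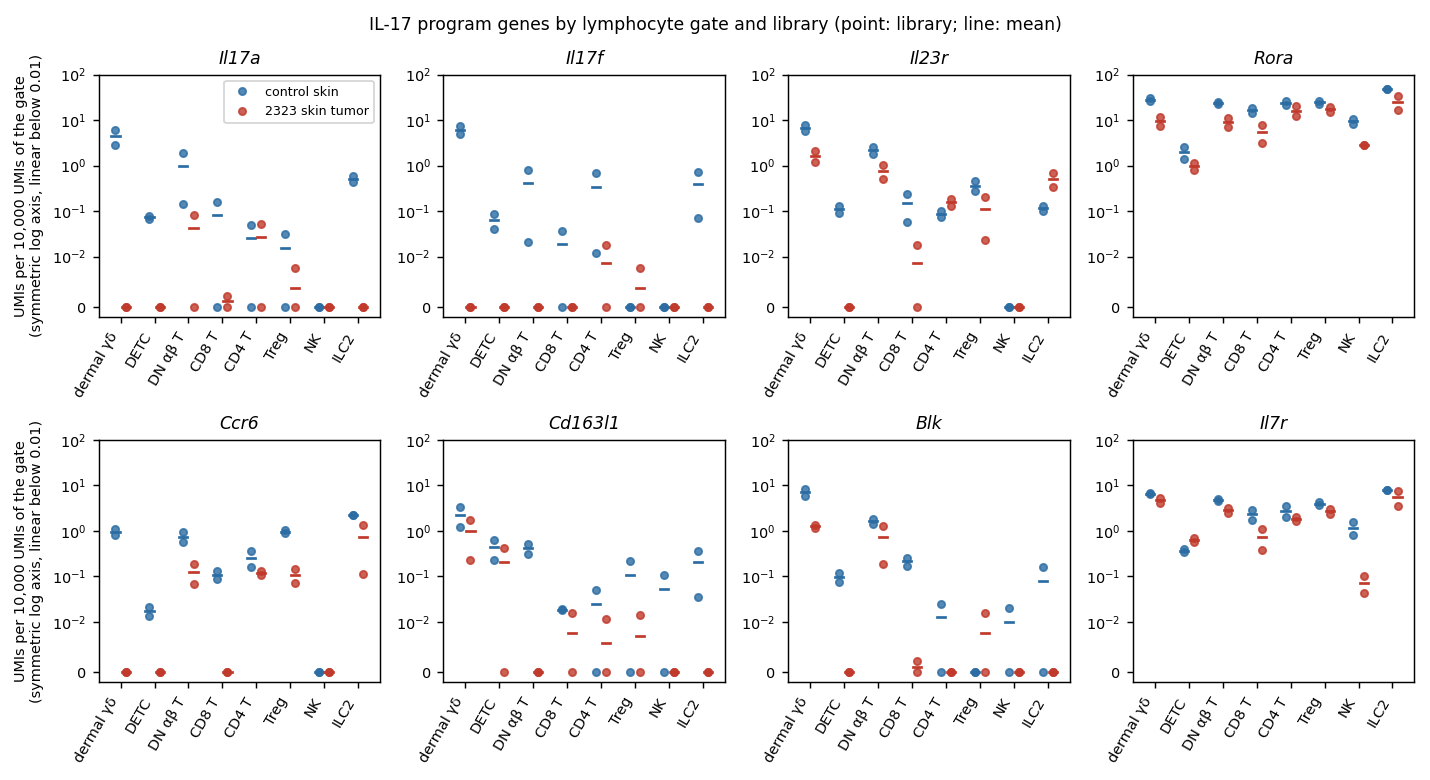
Level of each gene (UMIs per 10000 UMIs of the cell type, on a symmetric log axis that is linear below 0.01) in 8 lymphocyte types, with a point per library, a line at the group mean, control skin in blue and skin tumor in red. Il17a and Il17f stood at 2.87 to 7.31 in control dermal γδ T cells and at 0 in the tumors, while Rora and Il7r were present in every type in all 4 libraries.

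Dermal γδ T cells with either cytokine often held other genes of the 8 as well. Of the 48 control dermal γδ T cells with Il17a or Il17f, 44 held Il23r, 46 held Blk, 48 held Rora, 48 held Il7r, 28 held Ccr6 and 22 held Cd163l1. Of the other 85 control dermal γδ T cells, 22 held Il23r, 22 Blk, 50 Rora, 38 Il7r, 18 Ccr6 and 19 Cd163l1. Of the 18 tumor dermal γδ T cells, all without either cytokine, 7 held Il23r, 4 Blk, 11 Rora, 15 Il7r, 0 Ccr6 and 4 Cd163l1. Depth differed between the sets, with a median of 11151 UMIs in the cytokine-positive and 5105.5 in the negative cells of control skin 1, and its part in these shares was not tested. Cells with 5 or more of the 8 genes made up 38.98% and 50% of dermal γδ T cells in control skin and 1 of 13 and 0 of 5 in the tumors. The transcription factor Sox13, which marks this γδ lineage, was in 24 of the 48 cytokine-positive cells and 7 of the 85 others.

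Cytokine-rich cells were counted apart from the gates, as lymphocytes with at least 3 UMIs of Il17a or of Il17f. There were 48 and 49 of them in the control skins and 3 and 0 in the tumors. In control skin 18 and 21 lay in the dermal γδ gate, 6 and 7 in the DETC gate, 6 and 2 among DN αβ T cells and 3 and 5 among ILC2, and 14 and 13 had too few markers for a type. Over both control skins, 84 of the 97 held a Trdc or Tcrg constant-chain transcript, 34 held Trac, 4 held Cd4, 71 held Il23r and 69 held Blk. The 3 tumor cells all held Il23r, Rora, Il7r and Il1r1, while 2 held Trac and 2 held Cd4. None of the 3 held Trdc, Blk, Ccr6 or Cd163l1, and 1 held a Tcrg constant-chain transcript.

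**Figure D2:**
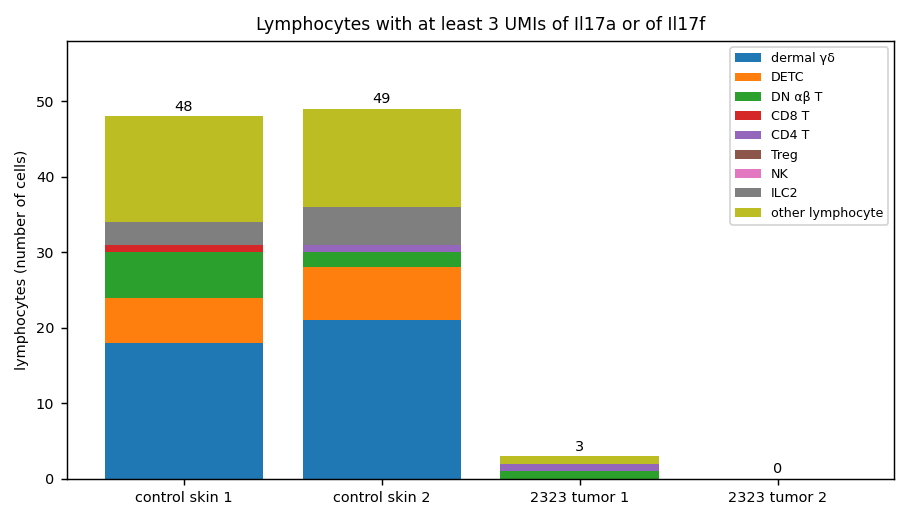
Number of lymphocytes with at least 3 UMIs of Il17a or of Il17f in each library, stacked by cell type (vertical axis: cells). Control skins held 48 and 49 such cells, most of them dermal γδ T cells or cells with too few markers for a type, and the tumors held 3 and 0.

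The remainder of the cytokine RNA of control skin came from several types. Of 1106 Il17a UMIs in control lymphocytes, 49.4% lay in dermal γδ T cells, 17.2% in DN αβ T cells, 10.8% in lymphocytes of no type, 10.1% in DETC and 9.86% in ILC2. For Il17f the dermal γδ share was 61.5% of 1205 UMIs. Single cells carried much of it, since 1 cell of control skin 1 held 127 Il17a UMIs in the DN gate and 1 cell held 34 of the 58 UMIs of the DETC gate. In DN αβ T cells Il17a accordingly stood at 1.86 and 0.144 in the control skins, and at 0.0835 and 0 in the tumors. The order of the types below dermal γδ T cells was not resolved beyond the spread of the libraries: DN αβ T cells and ILC2 (0.578 and 0.429) overlapped for Il17a.

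Of the other genes, Il23r, Blk and Cd163l1 were highest in control dermal γδ T cells, as the cytokines were, while Rora, Il7r and Ccr6 were highest in ILC2. Il23r (6.83 ± 1.57, mean ± SD, n = 2) and Blk (7.08 ± 1.78) were highest in dermal γδ T cells and next in DN αβ T cells (2.18 ± 0.54 and 1.62 ± 0.34), with no overlap of libraries. Rora was highest in ILC2 (48.44 ± 0.28), followed by lymphocytes of no type (33.51 ± 1.53) and dermal γδ T cells (27.96 ± 2.82), which overlapped Treg (24.47 ± 3.34). Il7r was also highest in ILC2 (7.90 ± 0.0447), above dermal γδ T cells (6.58 ± 0.38) without overlap. Ccr6 was highest in ILC2 (2.25 ± 0.00623) and in 58.6% and 59.6% of those cells at full depth, and next among the named types in Treg (0.96 ± 0.0976) and dermal γδ T cells (0.94 ± 0.22), which overlapped. Cd163l1 was highest in dermal γδ T cells (2.25 ± 1.46) and was also found in 94 and 47 DETC (0.643 and 0.231). NK cells held no UMI of Il17a, Il17f, Il23r or Ccr6 in any library, which with 58 control and 153 tumor cells allows shares of up to 5.17% and 1.96% by the same 3 counts.

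Over 29 sums of a type in a library, the genes with the most similar pattern were found by Pearson's r of log2(UMIs per 10000 + 0.1), as a description of points that share libraries. Il17f was the gene most like Il17a (r = 0.904), followed by Cryba4 (0.896) and Kcnk1 (0.889), Ppp1r14c (0.826) and Coro2b (0.812). Nearest to Il17f after Il17a were Kcnk1 (0.853), Cryba4 (0.847), Gcnt2 (0.822) and Gm46224 (0.779). Il23r was most like Blk (0.917), then Il1r1, the IL-1 receptor (0.914), with Kcnk1 (0.848) and Fstl4 (0.821) also among the nearest. Cd163l1 was nearest to Abi3bp (0.862), Igf1r (0.830), Dnajc6 (0.809), Ank2 (0.795) and Kcnk1 (0.788).

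Over the summed lymphocytes, 7 of the 8 genes were lower in the tumors by edgeR's quasi-likelihood test, and Rora was not called. In this sum, 14.3% of 13190 genes were lower and 9.42% higher, and the sum mixes types whose shares differed, and fewer cells of a type cannot be told apart from less RNA per cell in it. Il17f stood at 0.427 and 0.409 per 10000 in control skin and at 0.00302 and 0.00274 in the tumors, the latter from 3 and 1 UMIs, so that it passed the filter on low counts only through control skin. Its log2 fold change was -7.35 (SE 0.25, adjusted p = 0.00636), and the groups were wide apart. Il17a stood at 0.483 and 0.265 against 0.0302 and 0 (adjusted p = 0.0203). Il23r stood at 0.586 and 0.707 against 0.0938 and 0.151 (log2 fold change -2.73, SE 0.26, adjusted p = 0.00682).

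The other 4 genes called in that sum also had groups without overlap. Ccr6 stood at 0.455 and 0.447 against 0.0655 and 0.0575 (-3.12, SE 0.17, adjusted p = 0.00636). Cd163l1 fell by 3.86 on the log2 scale, Blk fell by 3.57 and Il7r fell by 1.14 (adjusted p = 0.00636, 0.00636 and 0.0238). Of the 1248 Cd163l1 UMIs in control lymphocytes, 52.5% lay in DETC and 21.8% in dermal γδ T cells. Rora stood at 16.1 and 12.6 against 6.75 and 12.5, with tumor 2 close to the lower control skin (adjusted p = 0.117). With either control library left out, 0 of the 7 genes and 0 genes in all were called, and the adjusted p values of the 7 lay between 0.0651 and 0.161, while the log2 fold changes kept their sign. Summed over all sorted cells, with macrophages included, 7 of 8 genes were lower (Rora at adjusted p = 0.0573) against 13.7% of 16366 genes (8.87% were higher). Lymphocytes made up 54.6% and 41.9% of the sorted control cells and 21.1% and 19.0% of the tumor cells. For Il7r, 19187 of 26387 control and 5765 of 7485 tumor UMIs lay outside the lymphocyte gates. The part of these shares was not tested, and the sum holds the same lymphocytes, so it is not separate support. Without control skin 1 only Il17f, Blk and Ccr6 were still called in that sum, and without control skin 2 only Il17f, Il23r, Cd163l1, Blk and Ccr6. Dissociation genes such as Fos and Jun together stood at 49.9 and 39.1 per 10000 lymphocyte UMIs in control skin and 57.1 and 60.6 in the tumors. Singly they differed in direction. Of the 10 tested in the lymphocyte sum, 5 were called lower and 1 higher (14.3% and 9.42% of all genes), with a median log2 fold change of -0.33. Their part in these results was not tested.

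The mixture of types was also described. When each tumor's shares of UMIs by type were combined with the control level of each type, Il17a would have been 0.205 and 0.177 per 10000, against 0.374 in control skin and 0.0302 and 0 as observed. Il17f would have been 0.209 and 0.256, Il23r 0.504 and 0.475 and Blk 0.412 and 0.338, all above what was observed. For Rora and Il7r the tumor shares gave higher values than control skin (20.4 and 21.8 against 14.3 for Rora, 3.10 and 3.25 against 2.47 for Il7r), while the observed levels were lower than control skin. Some of the control levels used rest on single cells. In control skin 1 cell held 127 of the 190 Il17a UMIs of DN αβ T cells and 1 held 25 of the 26 of CD8 T cells. For Il17f, 1 cell held 27 of the 28 UMIs of control CD4 T cells. These values are descriptions and were not tested.

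**Figure D3:**
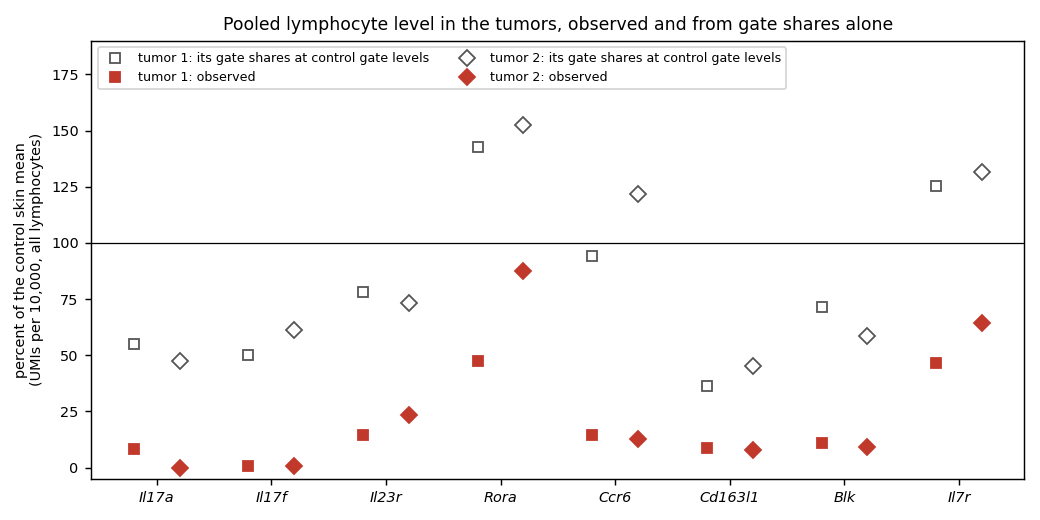
Level of each gene over all lymphocytes in each tumor, as a percent of the control skin mean (vertical axis), as observed (red) and as given by the tumor's shares of cell types at control levels (open grey), with a square for tumor 1 and a diamond for tumor 2. Every observed point lies below its open point, and the open points of Rora and Il7r, with that of Ccr6 in tumor 2, lie above the line at the control mean.

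Within types that both tissues held in number, the genes were tested type by type. A gene that reached the filter on low counts only in control skin, or only in the tumors, could be called in 1 direction alone, and is named as such. In CD8 T cells Rora, Il7r and Blk were tested and were lower, as were 5.57% of 8044 genes (3.61% were higher), but Blk passed only through control skin. Rora stood at 14.4 and 18.6 in control skin and 3.11 and 7.63 in the tumors (log2 fold change -1.80, SE 0.39, adjusted p = 0.0239). At 2000 UMIs per cell it was found in 81.9% and 85.1% of control and 39.8% and 63.0% of tumor CD8 T cells. Il7r, a gene of naive and memory T cells, stood at 2.92 and 1.77 against 0.387 and 1.09 (-2.04, SE 0.46, adjusted p = 0.0279), also without overlap. Blk was called as well (adjusted p = 0.00315), but its 41 control UMIs came from 3 of 191 cells. Dissociation genes together stood at 36.2 and 29.9 per 10000 in control and 46.4 and 43.5 in tumor CD8 T cells. Of the 10 tested there, 3 were called lower and 4 higher, with a median log2 fold change of -0.72. Their part was not tested. Without control skin 1 only Rora was called, and DESeq2's Wald test called only Blk.

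In DN αβ T cells Il23r, Rora, Ccr6, Cd163l1 and Blk were lower and Il7r was not called, where 3.46% of 6040 genes were lower and 3.33% higher. Ccr6 and Cd163l1 passed the filter only through control skin. Il23r stood at 1.80 and 2.56 in control skin and 0.501 and 1.01 in the tumors (-1.76, SE 0.36, adjusted p = 0.00373). Rora stood at 24.4 and 22.8 against 6.90 and 10.9 (-1.43, SE 0.26, adjusted p = 0.00166). In both the groups did not overlap. Ccr6 stood at 0.568 and 0.928 against 0.0668 and 0.185 (-3.01, SE 0.59, adjusted p = 0.00297), the latter from 4 and 2 UMIs. Cd163l1, at 0.304 and 0.516, had 0 UMIs in the tumors (adjusted p = 0.00188), and its control UMIs came from 6 and 4 cells. Blk stood at 1.38 and 1.86 against 0.184 and 1.29 (adjusted p = 0.0349), the last value being 14 UMIs of 1 cell. Il7r was at 5.10 and 4.64 against 2.42 and 3.23 (adjusted p = 0.0753) and was not called. Tumor 2 held 17 such cells. Median depths in this gate were 9070 and 9422 UMIs in control skin and 6182 and 6049 in the tumors. The part of undetected Cd4 or Cd8 was not tested. Transcripts of γδ T cells moved with the group in this gate, with Trdv4 in 15.5% and 15.2% of control and 0% of tumor cells and Trdc in 9.71% and 4.35% against 1.12% and 0%, and dissociation genes stood at 49.2 and 37.6 against 65.4 and 68.3. Their part in these results was not tested. Without tumor 1 there were 0 calls, and DESeq2 and the stricter gate each called only Cd163l1 and Rora.

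Of the 4 genes tested in Treg, Ccr6 was called lower, where 2.31% of 6671 genes were lower and 2.68% higher, and it passed the filter only through control skin. It stood at 1.03 and 0.892 per 10000 in control skin and 0.147 and 0.0722 in the tumors (-3.02, SE 0.40, adjusted p = 0.00117), and at 2000 UMIs per cell it was found in 18.2% and 16.2% against 0.8% and 1.64% of the cells. Under the 11 alternatives the log2 fold change of Ccr6 ran from -3.93 to -2.69. These alternatives reuse the same counts and are not independent support. Rora (26.8 and 22.1 against 15.4 and 19.2) and Il7r (4.20 and 3.69 against 2.29 and 3.05) had lower tumor values without a call (adjusted p = 0.308 and 0.198), and Il23r had an adjusted p of 0.153. Dissociation genes stood at 21.2 and 20.8 in control and 31.8 and 65.8 in tumor Treg, and their part was not tested.

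In CD4 T cells 0 of 4 tested genes were called by edgeR, and 0 by DESeq2, while 4.07% of 7620 genes were lower and 4.72% higher. The unadjusted p was under 0.05 for Il7r alone (0.0444). Rora stood at 21.4 and 25.8 against 12.2 and 20.0, Il7r at 3.44 and 2.01 against 1.99 and 1.64 and Ccr6 at 0.159 and 0.352 against 0.132 and 0.105. Il23r had higher values in the tumors (0.185 and 0.128 against 0.0980 and 0.0753, log2 fold change 0.75, SE 0.54, adjusted p = 0.455), in 6 and 9 cells. It passed the filter only through the tumors. Il17a was in 1 of 115 control and 1 of 219 tumor CD4 T cells. Dissociation genes stood at 33.0 and 23.2 against 67.1 and 67.5.

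NK cells, which lack the cytokines and Il23r, were tested for Il7r and Rora, which were both lower, as were 1.9% of 5896 genes (1.73% were higher), and Il7r passed the filter only through control skin. Il7r stood at 1.54 and 0.822 in control skin and 0.104 and 0.0421 in the tumors, the latter from 9 and 2 UMIs (-3.89, SE 0.49, adjusted p = 0.00333). Rora stood at 8.12 and 10.7 against 2.89 and 2.82 (-1.72, SE 0.24, adjusted p = 0.00614). Under the 11 alternatives the log2 fold change ran from -4.77 to -3.28 for Il7r and from -1.87 to -1.54 for Rora. These alternatives reuse the same counts and are not independent support. The NK markers moved with the group too: Eomes, a factor of NK cells that ILC1 lack, was in 45.9% and 66.7% of the control and 76.3% and 85.7% of the tumor cells, and Klra8 was in 24.3% and 19.0% against 67.0% and 57.1%. Dissociation genes stood at 41.1 and 30.9 against 72.6 and 70.2. The part of these in the result was not tested.

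In DETC 0 of 7 tested genes were called, and edgeR called 0 of 10297 genes (0% lower, 0% higher), with 818 at an unadjusted p under 0.05 and 285 called by DESeq2. Of the 7, Il17a, Il17f, Il23r and Blk passed the filter only through control skin. The tumor gates held 13 and 23 cells. Il23r stood at 0.128 and 0.0921 in control DETC and had 0 UMIs in the tumors, and Rora stood at 2.50 and 1.39 against 1.12 and 0.790 (adjusted p = 0.625 and 0.617). Il7r was at 0.390 and 0.342 against 0.691 and 0.557 (adjusted p = 0.647). The median log2 fold change of all genes in this gate was -0.12, and these differences were not detectable at this depth.

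**Figure D4:**
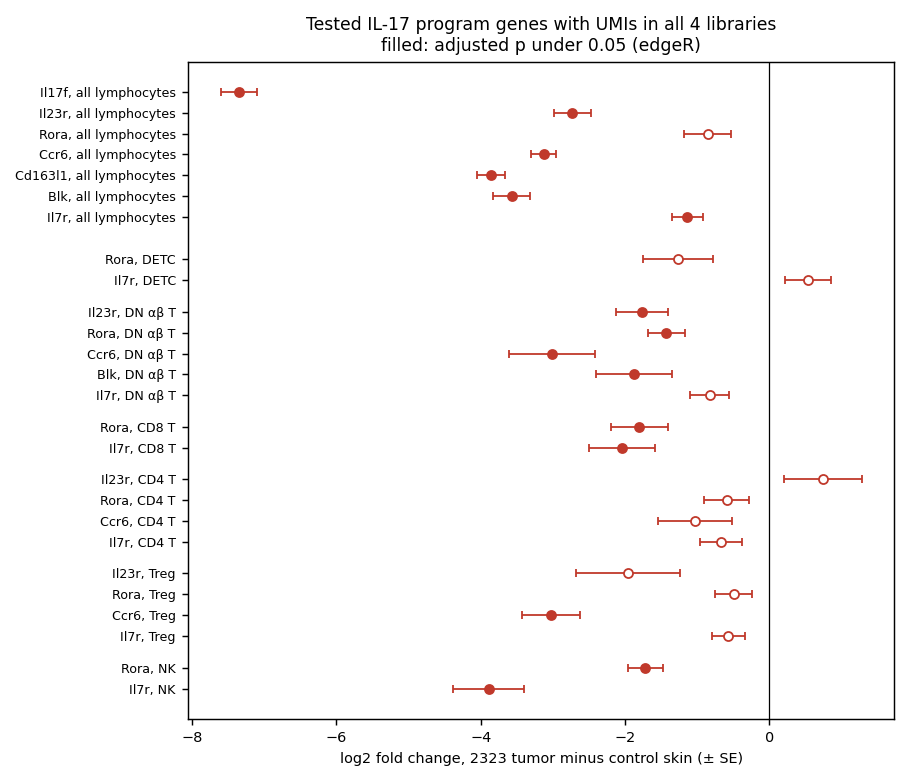
Log2 fold change (tumor minus control skin, horizontal axis) with its SE for 26 tests in which all 4 libraries held a UMI of the gene, by cell type, filled where the adjusted p was under 0.05. All filled points lie left of 0, and the points to the right of 0 are Il7r in DETC and Il23r in CD4 T cells.

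Rora and Il7r were called in some types and not in others, so the difference between types was tested itself, over 4 pairs of types and 17 tests, with the library as a block and adjustment over all genes. The pairs were chosen from those calls in the same counts, so these tests are not independent support. DN αβ T cells, where Rora was also called, were not paired. Of all genes, 137 of 8336 were called for CD8 T against CD4 T cells and 124 of 7611 against Treg. For NK cells 233 of 7646 were called against CD4 T cells and 41 of 6955 against Treg. The Rora log2 fold change was lower in CD8 T than in CD4 T cells by -1.24 (SE 0.21, adjusted p = 0.00776) and than in Treg by -1.36 (SE 0.28, adjusted p = 0.0456). That of Il7r was lower in NK cells than in CD4 T cells by -3.18 (SE 0.47, adjusted p = 0.000852) and than in Treg by -3.20 (SE 0.53, adjusted p = 0.0228). Rora in NK cells against CD4 T cells (-1.01, adjusted p = 0.0514) and against Treg (-1.18, adjusted p = 0.0834), and Il7r in CD8 T cells against CD4 T cells (-1.46, adjusted p = 0.0909) and against Treg (-1.44, adjusted p = 0.0754), did not pass.

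ILC2 were too few in the tumors for a test. Rora stood at 48.6 and 48.2 in control skin and 33.4 and 16.4 in the tumors, and Ccr6 at 2.24 and 2.25 against 1.34 and 0.114, the latter from 4 and 1 UMIs. Il7r stood at 7.87 and 7.93 against 7.36 and 3.52. Il23r was higher in the tumors without overlap, at 0.131 and 0.0997 in control skin against 0.334 and 0.682, but the tumor values were 1 and 6 UMIs of 1 cell each. Trdv4 was found in 48.9% and 48.2% of control and in 0% and 11.1% of tumor ILC2, and its part was not tested. The tumor ILC2 had medians of 2740 and 2811 UMIs per cell against 8434 and 8382 in control skin, and the part of depth in these values was not tested.

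The genes around the program were taken from lists of 60 other genes: ligands, receptors and adaptors of IL-17, the cytokines that induce it and their receptors, and factors, cytokines and surface genes of type 17 cells. Over all lymphocytes 50 were tested, of which 15 were lower and 7 higher (14.3% and 9.42% of all genes), with a median log2 fold change of -0.54 against 0.06 over all genes. Among transcription factors, Ahr, the aryl hydrocarbon receptor, fell from 1.84 and 1.97 per 10000 to 0.346 and 0.501 (-2.46, SE 0.20, adjusted p = 0.00636), Zbtb16, the factor PLZF of innate-like T cells, fell (-1.42, adjusted p = 0.0117) and Ikzf3 fell (-1.11, adjusted p = 0.0165). Hif1a and Batf were higher (0.82 and 0.93, adjusted p = 0.0391 and 0.0266). Maf stood at 2.34 and 1.90 against 2.38 and 2.58 (adjusted p = 0.833) and Sox13 at 0.0121 and 0.0323 against 0.00403 and 0.00274 (adjusted p = 0.0588).

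Among receptors and surface genes in that sum, Il1r1 fell (-1.11, SE 0.22, adjusted p = 0.0263), Tgfbr2, the TGF-β receptor, fell from 5.07 and 5.58 to 1.97 and 2.10, and Cd44, 5830411N06Rik and Cxcr6 were lower. Of the IL-17 receptors only Il17rb, which binds IL-25, was lower of 5 tested (adjusted p = 0.013), and it passed the filter only through control skin. Among the other cytokines, Ifng was higher (0.517 and 0.197 against 1.99 and 1.86, adjusted p = 0.0295), as were Il21 and Ltb, of which Il21 passed the filter only through the tumors. The adaptor Traf3 and the target Nfkbiz were the 2 of 6 signaling genes that rose. The inducing cytokine Tgfb1 and the 5 genes Aqp3, Capg, Lgals3, Actn2 and Serpinb1a were lower as well. As in the members, 0 of these genes were called in this sum without either control library.

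Within types the counts are set beside the shares of all genes lower and higher. In CD8 T cells 12 of 34 tested were lower and 0 higher (all genes 5.57% and 3.61%), among them Il6ra (0.622 and 0.786 against 0.0401 and 0.0877), Il17ra (1.31 and 1.30 against 0.537 and 0.684), 5830411N06Rik (0.243 and 0.402 against 0.00223 and 0) and Zbtb16, Ahr, Ikzf3, Cd44, Cxcr6, Tgfbr2, Capg, Lgals3 and Tnf. Of these, Il6ra, 5830411N06Rik and Zbtb16 passed the filter on low counts only through control skin, so they could only be called lower. In CD4 T cells 8 of 38 were lower (Cd44, Il17ra, Lgals3, Tgfbr2, Cxcr6, Ccr2, Ikzf3, Serpinb1a) and 7 higher (Ramp1, Il21, Tmem176a, Ifng, Traf3, Nfkbiz, Ltb), where 4.07% and 4.72% of all genes were. Il21 passed the filter there only through the tumors, so it could only be called higher. In Treg 4 of 31 were lower (Cd44, Cxcr6, Ikzf3, Il6st) and 3 higher (Ramp1, Ifng, Ltb), where 2.31% and 2.68% of all genes were. Ramp1 and Ifng passed the filter in Treg only through the tumors. In DN αβ T cells 4 of 37 were lower (Cd44, Capg, Cxcr6, Ikzf3) and 2 higher (Il6st, Traf3), where 3.46% and 3.33% of all genes were, while Il1r1 stood at 0.538 and 0.866 against 0.418 and 0.830 and Maf at 3.30 and 2.70 against 3.12 and 2.58 (adjusted p = 0.741 and 0.971). Il6st passed the filter in this type only through the tumors. In NK cells 5 of 32 were lower (Cd44, Tmem176a, Tmem176b, Lgals3, Cxcr6) and Ifng was higher, where 1.9% and 1.73% of all genes were. Tmem176a, Tmem176b and Cxcr6 passed the filter in NK cells only through control skin. In DETC 0 of 40 were called.

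Over all sorted cells 17 of 56 tested genes of these lists were lower and 9 higher, where 13.7% and 8.87% of all genes were. The higher ones included Il1b, which stood at 1.89 and 2.55 per 10000 in control skin and 10.4 and 11.7 in the tumors (2.15, SE 0.21, adjusted p = 0.00968), and Il1a, at 0.0123 and 0.0256 against 0.275 and 0.346. The others were Tgfb3, Il21, Hif1a, Traf3, Nfkbiz, Tmem176b and Ccl20, the ligand of CCR6, which had 0 UMIs in control skin and 0.00399 and 0.0108 per 10000 in the tumors. Il21 and Ccl20 passed the filter only through the tumors. Sox13 was lower there (adjusted p = 0.0268). Further lower genes included Il18r1, Ramp1, Aqp3, Il17ra, 5830411N06Rik, Il17rb, Zbtb16, Tgfbr2, Cxcr6, Ikzf3, Stat3, Actn2, Irf4, Serpinb1a and Ahr. Of these, Il17rb passed the filter only through control skin. This sum includes macrophages, which made up 2.97% and 6.75% of control and 38.6% and 30.6% of tumor cells.

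Lymphocytes with 5830411N06Rik were also counted without the γδ gate, a set added after the data had been seen. Of 164 such control cells, 40 held Il17a, 44 held Il17f, 80 held Il23r, 79 held Blk and 79 held Ccr6. Of 19 such cells in the tumors, 0 held either cytokine, which allows a share of up to 15.8%, while 10 held Il23r, 19 held Rora, 14 held Il7r, 7 held Blk and 5 held Ccr6. Trac was in 8 of the 19 tumor cells and Trdc in 5, against 55 and 90 of the 164 control cells.

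Outside the lymphocytes, Il7r and Rora were the only members at a level of note in macrophages. Il7r stood at 5.06 and 2.63 per 10000 in control macrophages and 0.334 and 1.14 in the tumors (-2.51, SE 0.64, adjusted p = 0.117), and at 6.29 and 5.79 in control Langerhans cells, of which the tumors held 0 and 5. In macrophages 1.67% of 12095 genes were lower, and of the 3 members tested there only Il17a was called (adjusted p = 0.0489), on 15 UMIs in 3 control cells, and through control skin alone. It was called in 4 of 8 alternatives, and not with the replicate block (adjusted p = 0.0653), with DESeq2's size factors (0.0524) or without tumor 1 or tumor 2 (0.32 and 0.221), while without either control library it did not pass the filter. Blk was found in 15 and 19 control Langerhans cells (0.0652 and 0.0588 per 10000).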

How the data were processed

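CD45+ cells of 2 control skins and 2 skin tumors were profiled by droplet 3' RNA sequencing. Each library came as a matrix of raw counts of UMIs that the authors deposited, made with Cell Ranger on mm10 (7.1.0 in the submitters' processing notes, 7.0.1 in the file headers), without normalization or pooling. The libraries held 50932896, 52784293, 73904272 and 34893543 UMIs in 3499, 3862, 5176 and 2258 cells, and precision is limited by the UMIs of a type.

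Cells with at least 1000 UMIs, 100 genes, at most 15% mitochondrial UMIs and a log10 gene to log10 UMI ratio of at least 0.8 were kept. The 1% per 1000 cells with the highest score against simulated doublets were removed (89, 95, 229 and 40 cells). Cells with under 15 UMIs per 10000 of markers of other lineages were gated by marker genes. NK cells needed 2 UMIs of Ncr1, Eomes, Klra7, Klra8 or Klrb1c, ILC2 needed Gata3 and a UMI of Il5, Il13, Il1rl1, Areg or Calca, and macrophages 10 of C1q. Marker thresholds were set after the data had been seen, and the members and lists were chosen with earlier results of these data known. Shares with a UMI were taken after thinning to 2000 UMIs and at full depth.

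Summed counts of types with at least 10 cells in every library were tested with edgeR 4.0.16 in R 4.3.3 (quasi-likelihood test, TMM, filterByExpr) on the 4 libraries, with Benjamini-Hochberg adjustment over all genes of a type and a threshold of 0.05. Each SE was derived from the fold change and its F statistic. An exact permutation test of 2 against 2 cannot give a p under 0.333. Alternatives were DESeq2 1.42.0, its size factors, no filter, a replicate block, each library left out, doublets kept, 10% mitochondrial UMIs and at least 2 UMIs of the gate markers; other γδ thresholds (8 and 16), the macrophage test, the test between types and the 5830411N06Rik cells were added after the data had been seen. The test was tested on simulated data: of genes changed by 2 on the log2 scale, 22% (DETC) to 86% (NK) were called. Of genes changed by 1, 0% (DETC) to 27% (NK) were called, with 20% in CD4 T cells and 26% in Treg. Named genes were the 8 members, called genes of the lists, Maf, Sox13, Il1r1 and Il22, and the 5 genes most like Il17a, Il17f, Il23r and Cd163l1 by r among genes with at least 100 UMIs. Coordinates are from GENCODE M21, which holds 30934 of the 31053 identifiers, and promoters from RefSeq; 7 of 8 members matched the promoter table, and Blk did not. Some items are not reported here.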

Additional observations from a re-analysis of the deposited data

Results flagged for a closer look

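The change of Rora from control skin to tumor differed between cell types: its log2 fold change in CD8 T cells minus that in CD4 T cells was -1.24 (adjusted p = 0.00776), and minus that in Treg -1.36 (adjusted p = 0.0456). The change of Il7r in NK cells minus that in CD4 T cells was -3.18 (adjusted p = 0.000852), and minus that in Treg -3.20 (adjusted p = 0.0228). They were singled out because the difference between types passed its own test, in a fit with the library as a block over 4 pairs of types and 17 tests of members. The pairs were chosen after the calls within types had been seen in the same counts, so this test is not independent support. In these pairs, in the order given, 137 of 8336, 124 of 7611, 233 of 7646 and 41 of 6955 genes were called. The lowest Il7r value rests on 9 and 2 UMIs in tumor NK cells, in which Eomes and Klra8 were found more often than in control NK cells, and the part of these markers was not tested. Within NK cells Il7r passed the filter on low counts only through control skin.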

How the results depend on the processing

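Counts of calls moved with the setting. The number of genes called was 3696 in all sorted cells (2123 with the replicate block), 3128 in all lymphocytes (4712 with no filter on low counts), 0 in DETC (22 with no filter, 43 with the block, 285 by DESeq2), 738 in CD8 T cells (1288 with no filter), 670 in CD4 T cells (1144 with no filter, 425 by DESeq2), 333 in Treg (647 with no filter, 158 by DESeq2, 41 with 2 UMIs of the gate markers), 410 in DN αβ T cells (146 by DESeq2, 155 with 2 UMIs) and 214 in NK cells (577 with no filter, 416 with the block, 127 by DESeq2). With each library left out in turn it ran from 375 to 6264 in all sorted cells, 0 to 5299 in all lymphocytes, 16 to 1910 in DETC, 220 to 2101 in CD8 T cells, 0 to 843 in CD4 T cells, 232 to 540 in Treg, 0 to 436 in DN αβ T cells and 97 to 348 in NK cells. A fit without 1 library leaves a lone sample that is assumed to vary like the other group.

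Of the 8 genes, with no filter 6 were called in CD8 T cells, 1 (Il17f) in CD4 T cells, 2 in Treg (Ccr6 and Il23r) and 8 in DN αβ T cells. DESeq2 called 1 in CD8 T cells and 2 in DN αβ T cells, and the gate at 2 UMIs called 2 in DN αβ T cells. With each library left out, 3 to 8 were called in all sorted cells, 0 to 8 in all lymphocytes, 1 to 6 in CD8 T cells, 0 to 1 in CD4 T cells, 1 to 2 in Treg and 0 to 6 in DN αβ T cells, and 2 in NK cells each time. Of the list genes the block called 17 in all sorted cells, DESeq2 called 2 in DETC, 4 in Treg and 3 in DN αβ T cells, and the gate at 2 UMIs called 1 in Treg and 2 in DN αβ T cells. With each library left out 5 to 39 were called in all sorted cells, 0 to 31 in all lymphocytes, 0 to 12 in DETC, 5 to 20 in CD8 T cells, 0 to 17 in CD4 T cells, 4 to 9 in Treg, 0 to 7 in DN αβ T cells and 2 to 9 in NK cells. The cause of these moves was not tested.

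The sign of 1 fold change turned: Il7r in DETC was -0.11 with doublets kept, against 0.53. Of the other fold changes of the 8 genes over all settings, 411 kept their side of the threshold, 42 lost and 16 gained a call. Of the levels in UMIs per 10000, 543 stayed within the spread of the replicates and 81 moved, and of the shares of cells with a UMI 147 stayed and 141 moved. In dermal γδ T cells the threshold of 8, chosen after seeing the data, put the mean of Il7r at 7.36 in control skin and 10.0 in the tumors, against 6.58 and 4.73 at 12 and 5.48 and 4.03 at 16. Il23r was 7.16 and 4.80 at 8, 6.83 and 1.65 at 12 and 5.49 and 1.38 at 16. For libraries of equal number, the correlation of their deviations from the group means ran from -0.05 to 0.18, highest in all lymphocytes. With 2 libraries per group this check cannot tell whether such libraries share more than a number. Depth limits the dermal γδ T cells and ILC2 of the tumors most, where 18 and 16 cells allow shares of up to 16.7% and 18.8% at a count of 0.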

Other observations

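Il22, a further cytokine of type 17 cells, had 1 and 2 UMIs in control dermal γδ T cells and 0 in those of both tumors, and was found in 4 of the 97 cytokine-rich control lymphocytes. Il23a, a subunit of IL-23, had 0 UMIs in dermal γδ T cells of all 4 libraries. In the same cells Il1r1 stood at 1.76 and 3.51 per 10000 in control skin and 1.44 and 0.935 in the tumors and Maf at 5.27 and 4.81 against 3.04 and 1.87.

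Of the cytokine-rich control lymphocytes, 63 of 97 held Gata3, a factor best known from type 2 cells, and 44 held 5830411N06Rik. Of the 28 Il17f UMIs of the tumors 24 lay outside the lymphocytes, against 161 of 1366 in control skin.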
